A study of Drosophila simulans and Drosophila sechellia and Drosophila simulans x Drosophila sechellia with 72 samples.

Results

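Cytochrome P450 genes were taken as all genes of the deposited expression table whose symbol begins with Cyp followed by a digit. Of 7836 genes, 46 matched. Among them Cyp1 encodes cyclophilin 1, a peptidyl-prolyl isomerase that shares only the prefix, and it was set aside. The 45 P450 genes comprise 14 of the Cyp4 family, 11 of Cyp6, 3 each of Cyp9, Cyp12 and Cyp28, and 11 of smaller families.

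P450 enzymes are haem proteins that insert oxygen into small hydrophobic molecules. In insects, members of Cyp4, Cyp6, Cyp9, Cyp12 and Cyp28 include enzymes that break down plant toxins and insecticides in the gut, fat body and Malpighian tubules, while others make or inactivate hormones, cuticle lipids and signals. Most sit in the endoplasmic reticulum and draw electrons from the reductase Cpr and from cytochrome b5, whereas the mitochondrial members, among them Cyp12, Cyp49a1 and Cyp301a1, use ferredoxin and its reductase.

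RNA of Drosophila simulans, of Drosophila sechellia and of their hybrids was sequenced in adults and larvae, with octanoic acid, the main toxic fatty acid of the noni fruit on which D. sechellia feeds, as the treatment. Each of 72 libraries was made from poly(A) RNA of 10 pooled whole animals, adult females or L3 larvae labelled as female. The 24 groups of 3 biological replicates were every combination of 2 stages, 3 genotypes and 4 media histories. A media history is written as a pair of letters, the previous generation first and the current generation last. S stands for standard food and O for food with octanoic acid, which gives SS, SO, OS and OO. The sources used here name neither strains nor the direction of the hybrid cross. Replicates are labelled biological, but what they shared is not stated, so p-values measure the spread between these pools. In pools of whole animals, fewer cells of a type and less RNA per cell cannot be told apart.

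Values are FPKM, fragments mapped to a transcript relative to its length and to all mapped fragments, so that they can be compared between genes, and read depth is unknown. Column totals differed between the species: they ran from 483241 to 515024 FPKM in adult D. simulans and from 1090157 to 1454241 in adult D. sechellia. In larvae they ran from 442983 to 543443 and from 1137758 to 1515240. Counts are therefore given as deposited and, in brackets where shown, after rescaling all libraries to the same median gene. Larval libraries held transcripts of the 3 testis markers dj, Mst98Cb and aly, at a summed 25.9 to 280 FPKM in D. simulans, 62 to 189 in D. sechellia and 7.39 to 85 in hybrids, against at most 0.41 in any adult library. Among D. simulans larvae, OO replicate 1 stood apart, with a median rank correlation of 0.837 to the other libraries against 0.888 to 0.941 for the other 11, and with a summed 15811 FPKM of 8 midgut markers.

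Summed P450 expression was lowest in adult D. simulans. The 45 genes together reached 317 ± 20.9 FPKM (SD, n = 12 libraries) there, 1104 ± 166 in adult D. sechellia and 1487 ± 186 in adult hybrids. In larvae the sums were 572 ± 175, 798 ± 166 and 1400 ± 582. As a share of the column total, however, the species came closer in adults, at 0.0633% and 0.0841%, and changed order in larvae, at 0.116% in D. simulans and 0.0602% in D. sechellia. The most abundant P450 also differed by group. In adult D. simulans it was Cyp6a22, with a mean of 32.8 FPKM, and in adult D. sechellia it was Cyp6a18, at 123 FPKM, ahead of Cyp4ac1 at 72.2 and Cyp28d1 at 65.5. D. simulans larvae expressed Cyp4d1 at 77.4 and Cyp311a1 at 75.4 FPKM, while D. sechellia larvae expressed Cyp9c1 at 82.6, Cyp312a1 at 57.5 and Cyp9b1 at 55.3.

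**Figure D1:**
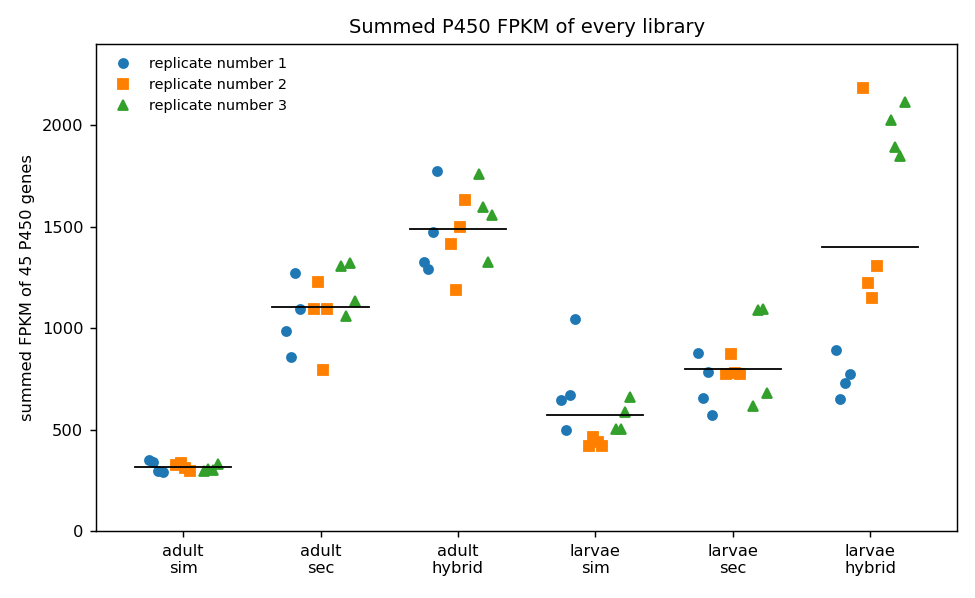
Summed FPKM of the 45 P450 genes (y axis, linear from 0) in each of 72 libraries, by stage and genotype (x axis); symbols and colours give the replicate number and black lines the mean of 12 libraries. The adult D. simulans libraries lie close together around 317 FPKM, and the larval hybrids spread from 654 to 2186.

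The first question was how P450 expression differs between the species, a specialist and a generalist. In adults, most P450 genes were higher in D. sechellia, as were most genes. Of 33 P450 genes that reached 1 FPKM in at least 3 libraries of each species, 27 were higher and 4 lower in D. sechellia by limma's test on log2(FPKM + 1), with a Benjamini-Hochberg adjusted p under 0.05 over all genes (18 higher and 9 lower rescaled). The matching share of all genes was 75.8% higher and 5.9% lower (34% and 38.2% rescaled). Their median difference was 1.16 on the log2 scale against 0.72 for all such genes (0.39 against -0.04 rescaled). Genes that passed in either species gave 37 higher and 4 lower of 43 tested, beside 77% and 5.96% of all genes (27 and 9, beside 38.3% and 35%, rescaled).

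By family, over genes that passed in each species, the adult counts as deposited were 6 higher and 2 lower of 10 for Cyp4, 8 and 1 of 9 for Cyp6, 3 and 0 of 3 for Cyp9, 2 and 0 of 2 each for Cyp12 and Cyp28, and 6 and 1 of 7 for the smaller families. Rescaled, they were 6 and 4, 4 and 3, 3 and 0, 1 and 0, 2 and 0, and 2 and 2. Markers of other tissues moved as well. The summed level of 6 Malpighian tubule markers ran from 54.2 to 83.5 FPKM in adult D. simulans, where Vha16-5 was listed at 0, and from 277 to 512 in adult D. sechellia, with 5 of 5 tested markers higher (4 rescaled). The 6 fat body markers summed to 160 to 281 and to 567 to 2406 FPKM, with 5 of 6 higher at both scales, and the 8 midgut markers to 3982 to 5756 and to 2199 to 4567, with 2 higher and 4 lower (0 and 7 rescaled). The part of these tissues in the P450 differences was not tested.

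In larvae the P450 genes stood nearer to the rest. Of 32 that passed in each species, 16 were higher and 5 lower in D. sechellia, beside 58.1% and 8.24% of all such genes (11 and 10, beside 31.7% and 33.2%, rescaled). The median P450 difference was 0.56 against 0.55 for all genes (-0.08 against -0.03 rescaled). Over the 42 genes that passed in either species, 23 were higher and 7 lower, beside 59.2% and 8.74%, with 18 and 13, beside 34.3% and 32.3%, after rescaling. By family, over genes that passed in each species, 5 were higher and 2 lower of 11 in Cyp4, 4 and 1 of 8 in Cyp6, 3 and 0 of 3 in Cyp9, 1 and 0 of 2 in Cyp12, 0 and 0 of 1 in Cyp28 and 3 and 2 of 7 in the smaller families (4 and 3, 2 and 2, 3 and 0, 1 and 1, 0 and 1, and 1 and 3 rescaled). Larval fat body markers summed to 17182 to 27804 FPKM in D. simulans and 8908 to 22674 in D. sechellia, with 1 higher and 4 lower of 6 (1 and 5 rescaled), and midgut markers had 3 higher and 5 lower of 8 (2 and 5 rescaled). Malpighian tubule markers summed to 25.5 to 74.8 FPKM in D. simulans larvae and 32.4 to 238 in those of D. sechellia. The part of these markers in the P450 differences was not tested. Leaving out the D. simulans larval library that stood apart left both counts at 23 and 7.

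Cyp9 was the family with the most uniform species difference. In adult D. simulans, Cyp9b1 ranged from 0.559 to 2.17 FPKM with a median of 1.35, and in adult D. sechellia from 37.8 to 88.3 with a median of 62.6. Larvae of D. simulans gave 0 to 6.44 with a median of 3.15, and those of D. sechellia 41.4 to 73.6 with a median of 55.7. No D. simulans library reached the lowest D. sechellia library in either stage. The difference was 4.69 ± 0.14 (log2 ± SE) in adults, adjusted p = 6.72e-17, and 3.84 ± 0.25 in larvae, adjusted p = 6.18e-11, and it was 4.03 and 3.26 after rescaling.

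Cyp9c1 and Cyp9h1 showed the same separation of adults. Cyp9c1 ran from 1.08 to 2.71 FPKM, median 1.54, in adult D. simulans and from 16 to 26.1, median 19.6, in adult D. sechellia. Larval levels were higher in each species, from 6.43 to 20.2, median 9.73, and from 50.5 to 119, median 81.7. Its species difference was alike in the 2 stages, at 3.02 ± 0.10 and 2.88 ± 0.16, and the test of the stage difference in it was not passed (0.14 ± 0.19). Cyp9h1 ran from 1.38 to 3.33 FPKM and from 29.5 to 59.8 in adults, and from 0.524 to 11.9 and from 13.5 to 33 in larvae, with differences of 3.69 ± 0.14 and 2.29 ± 0.22. Here, too, the species did not overlap in either stage.

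**Figure D2:**
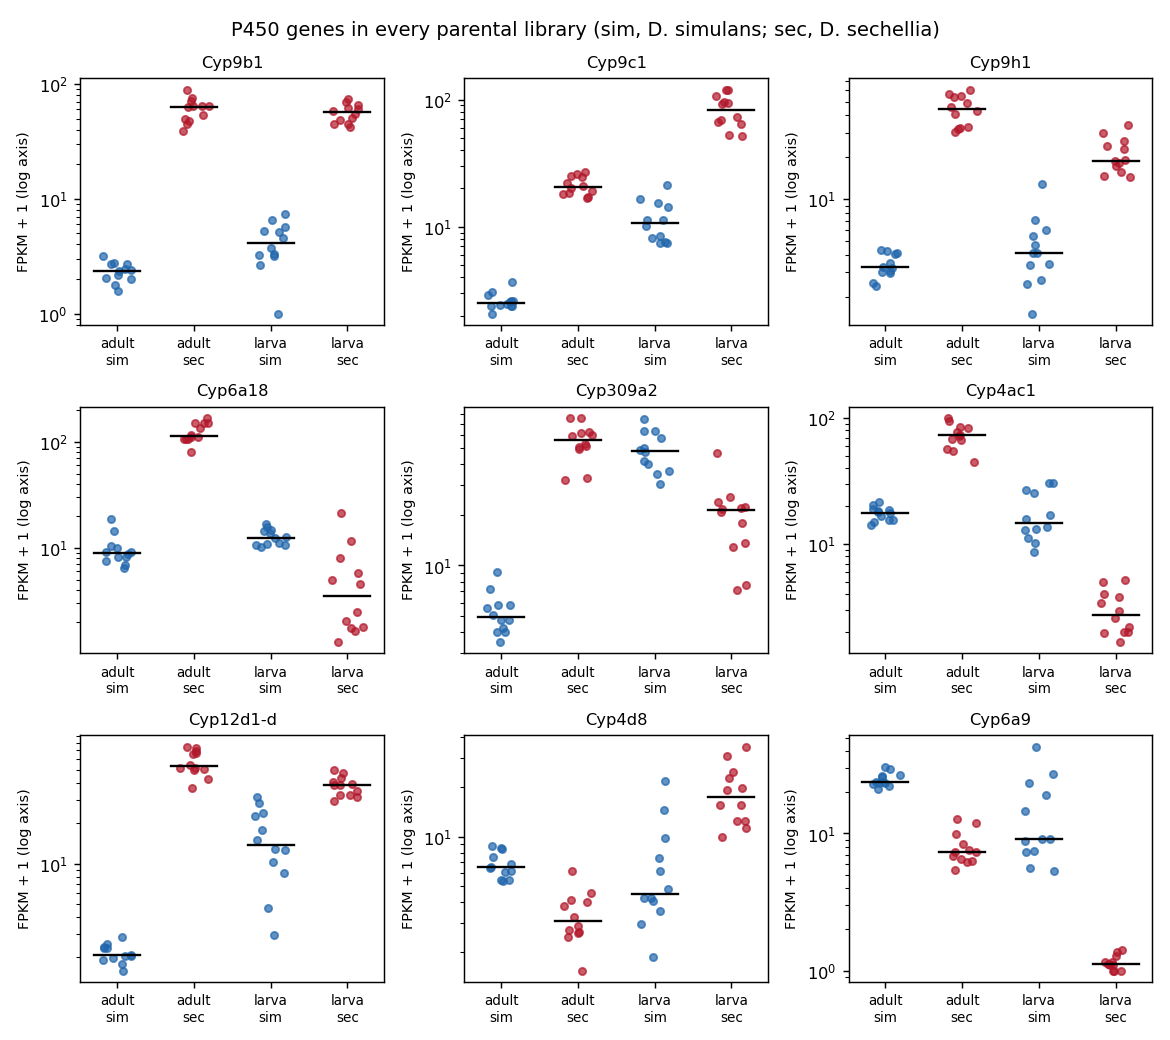
FPKM + 1 (log y axis) of 9 P450 genes in every parental library, by stage and species (x axis: sim, D. simulans, blue; sec, D. sechellia, red); points are libraries, 12 per column, and black lines are medians. The Cyp9 genes separate the species in both stages, whereas Cyp6a18, Cyp309a2 and Cyp4ac1 are high in D. sechellia adults and low in its larvae.

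In the mitochondrial family Cyp12, the gene Cyp12d1-d showed the widest adult difference among genes listed above 0 in both species. In D. melanogaster, Cyp12d1 is induced by caffeine and phenobarbital, and its overexpression gives tolerance to DDT. There it exists as a pair of near-identical copies, so reads of close copies could be shared, and the sources used here do not say how they were counted. Its level was 0.59 to 1.85 FPKM, median 1.06, in adult D. simulans and 35.4 to 73.7, median 52.1, in adult D. sechellia, a gap of 4.72 ± 0.12 (adjusted p = 3.07e-18). The larvae overlapped, with 1.93 to 30.4, median 12.9, and 28.2 to 48.9, median 37.5, and the difference was 1.53 ± 0.26 (adjusted p = 2.51e-05; 0.92 rescaled). Cyp12c1 was 0.67 ± 0.15 higher in adults, a value of -0.08 after rescaling, and did not pass in larvae (-0.02 ± 0.14).

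Within Cyp28, a family whose D. mettleri members are induced by cactus alkaloids, Cyp28d1 behaved differently by stage. In D. melanogaster this gene contributes to nicotine resistance. Adult levels were 2.58 to 4.13 FPKM, median 3.43, in D. simulans and 24.7 to 93.7, median 70, in D. sechellia, with no overlap and a difference of 3.83 ± 0.15. Larval levels were 11.2 to 29.9, median 22.2, and 5.22 to 30.5, median 13.4, which overlapped broadly, and the difference of -0.48 ± 0.23 did not pass as deposited (adjusted p = 0.0758) but did after rescaling (-1.09). Cyp28a5 was 1.62 ± 0.13 higher in adult D. sechellia, with 21.1 to 46.6 against 7.12 to 15.1 FPKM. In larvae of D. simulans it was listed at 0 in all 12 libraries, against 1.21 to 72.2 FPKM in D. sechellia.

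The Cyp6 family, which holds many of the P450s tied to insecticide resistance in flies, went both ways. Cyp6a18 had 5.46 to 17.9 FPKM, median 7.92, in adult D. simulans and 78.2 to 166, median 113, in adult D. sechellia, which is 3.69 ± 0.14 higher. In larvae the order turned, with 9.18 to 15.8, median 11.4, in D. simulans and 0.291 to 20.3, median 2.54, in D. sechellia, a difference of -1.73 ± 0.31. The adults did not overlap, and the larvae did. Cyp6a14 was higher in D. sechellia in both stages, by 2.22 ± 0.19 and 3.45 ± 0.34, with medians of 6.99 and 38.5 FPKM in adults and of 0.945 and 30.2 in larvae. Cyp6w1, which is overexpressed in a DDT-resistant D. melanogaster strain, was higher by 2.25 ± 0.13 and 1.87 ± 0.41.

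Cyp6a9 was the reverse case, lower in D. sechellia in both stages. D. simulans adults had 20.1 to 29.4 FPKM, median 22.8, and D. sechellia adults 4.43 to 11.7, median 6.34, a difference of -1.68 ± 0.10 (adjusted p = 2.34e-12). Larvae had 4.32 to 42.1, median 8.09, and 0 to 0.419, median 0.116, a difference of -3.40 ± 0.23 (adjusted p = 7.8e-11). No D. sechellia larval library reached 1 FPKM, so Cyp6a9 entered the larval test only through D. simulans. The species did not overlap in either stage, and the sign held after rescaling (-2.42 and -3.73). Other Cyp6 genes have a known role in D. melanogaster. Cyp6a2, whose overexpression accompanies DDT resistance, was 0.87 ± 0.15 higher in adults but only 0.11 after rescaling, where it did not pass, and it did not pass in larvae (0.19 ± 0.30). Cyp6a17, which affects temperature preference and pyrethroid sensitivity, was 1.36 ± 0.09 higher in adults (0.61 rescaled), and its larval value was 0.39 ± 0.19, which did not pass.

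Among Cyp4 genes, a family of fatty acid and hydrocarbon hydroxylases, Cyp4ac1, Cyp4d20 and Cyp4d8 showed 3 different patterns. Cyp4ac1 was 2.04 ± 0.12 higher in D. sechellia adults, with 43.9 to 99.2 against 13.2 to 20.4 FPKM, and 2.53 ± 0.21 lower in its larvae, with 0.665 to 4.14 against 7.68 to 29.8. Neither stage showed overlap. Cyp4d20 was higher in both stages, at 28.8 to 43.1 against 10 to 13.9 FPKM in adults and 14.4 to 33 against 0.465 to 2.08 in larvae, with differences of 1.45 ± 0.08 and 3.54 ± 0.13. Cyp4d8 was -1.06 ± 0.16 in adults, with medians of 5.51 FPKM in D. simulans and 2.07 in D. sechellia, and 1.66 ± 0.30 in larvae, with medians of 3.52 and 16.4, and its libraries overlapped in both stages. Cyp4g15, a gene of the larval nervous system in D. melanogaster, was higher by 1.70 ± 0.15 and 1.44 ± 0.10. Cyp4d21, which is male-biased in D. melanogaster and known as sxe1, stayed below 1 FPKM in all parental libraries and was not tested in the parents. Cyp4e1 was -0.90 ± 0.27 in adults, with 7.69 to 19.1 FPKM in D. simulans and 0.904 to 11.8 in D. sechellia, and its larval value of 0.11 ± 0.37 did not pass.

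Of the smaller families, Cyp309a2 followed Cyp6a18. Its adult levels were 2.49 to 8.19 FPKM, median 3.9, in D. simulans and 31.3 to 74.6, median 55, in D. sechellia, with no overlap and a difference of 3.38 ± 0.17. Larval levels were 29.6 to 73.4, median 47.2, and 6.1 to 45.7, median 20.3, with overlap and a difference of -1.41 ± 0.23. Cyp318a1 also changed sign, at 0.90 ± 0.16 in adults and -1.51 ± 0.17 in larvae, although the adult value fell to 0.36 and did not pass after rescaling. It stayed under 1 FPKM in every D. sechellia larval library and entered the larval test only through D. simulans. Cyp310a1, a gene of the wing disc in D. melanogaster, was 1.29 ± 0.14 higher in adults, where its highest library had 5.16 FPKM, and 1.87 ± 0.16 higher in larvae, where medians were 5.73 and 22.5. In adult D. simulans it stayed under 1 FPKM in every library, so it entered the adult test only through D. sechellia. Cyp301a1, needed for adult cuticle in D. melanogaster, was listed at 0 in 11 of 12 D. simulans adult libraries and at 3.39 to 10 FPKM in D. sechellia adults (2.66 ± 0.15), and its larval value of 0.20 ± 0.19 did not pass. Cyp311a1, a midgut gene of D. melanogaster, was 0.40 ± 0.07 as deposited and -0.39 rescaled in adults, and -0.46 ± 0.32 in larvae, which did not pass. Cyp317a1 was lower in both stages, by values of -0.28 ± 0.12 and -0.71 ± 0.28, calls that were lost on leaving out any of 11 adult or any of 8 larval libraries, with values from -0.22 to -0.28 and from -0.57 to -0.68.

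A further set of genes was listed at 0 in D. simulans. Cyp12b2, Cyp4aa1, Cyp6t3, Cyp6g2 and Cyp303a1 were listed at 0 in all 24 D. simulans libraries, and Cyp4d14 in all 12 adult and 11 of 12 larval ones. In D. sechellia the adult medians were 43 FPKM for Cyp4aa1, 38.1 for Cyp12b2, 10.8 for Cyp6t3, 3.86 for Cyp6g2, 3.62 for Cyp303a1 and 3.4 for Cyp4d14. Larval medians of D. sechellia were 2.28, 2.19, 0.125, 2.29, 0.733 and 3.68 FPKM in the same order. In D. melanogaster, Cyp6g2 gives insecticide tolerance when overexpressed, Cyp6t3 takes part in ecdysone synthesis and Cyp303a1 is needed for sensory bristles. A value listed at 0 in an FPKM table may be a failed estimate, so no fold between the species is given for these genes. Differences given elsewhere for genes listed at 0 in most libraries of a group, such as Cyp301a1 in adult D. simulans, carry the same limit. The D. simulans allele columns of the hybrids come from other libraries, but a failed estimate of a gene could recur there. A value listed at 0 in both is therefore not separate support. Cyp12b2, Cyp6t3 and Cyp6g2 were listed at 0 in the D. simulans allele column of all 24 hybrid libraries, and Cyp4aa1 in that of 11 of 12 adult libraries. For Cyp4d14 and Cyp303a1 the D. simulans allele column was above 0 in some hybrids, being listed at 0 in 8 and 6 of 12 adult libraries and in 4 and 4 of 12 larval libraries.

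The comparison of stages was made within each species. In D. simulans, 10 of the 31 P450 genes that passed in each stage were higher in adults and 11 lower, beside 47.1% and 29.7% of all such genes (7 and 15, beside 39.9% and 38.2%, rescaled). In D. sechellia, 20 of 38 were higher and 10 lower, beside 49% and 27.9% (16 and 11, beside 37.3% and 39.6%, rescaled). Over genes passing in either stage, the counts were 12 higher and 15 lower of 44 in D. simulans, beside 38.5% and 39.5%, and 25 and 11 of 44 in D. sechellia, beside 44.2% and 36.6% (9 and 19, beside 33.6% and 46.2%, and 21 and 12, beside 34.5% and 46.2%, rescaled). By family, over genes that passed in each stage, Cyp6 had 5 higher and 1 lower of 9 in D. simulans and 6 and 1 of 9 in D. sechellia (4 and 2, and 4 and 1, rescaled). Cyp28 had 0 and 1 of 1 in the former and 2 and 0 of 2 in the latter, at both scales. The summed egg and ovary markers, which ran from 6378 to 38595 FPKM in adult libraries, were at most 34.2 in larval ones. Fat body markers ran the other way, from 160 to 281 FPKM in adults and 17182 to 27804 in larvae of D. simulans, and from 567 to 2406 and 8908 to 22674 in D. sechellia. The part of either list in the P450 stage differences was not tested.

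Cyp305a1 had the largest adult excess in D. simulans. Adults had 15.5 to 24.2 FPKM in D. simulans and 20.4 to 40.4 in D. sechellia, and larvae 0.12 to 0.68 and 0.488 to 2.32, which gave 3.83 ± 0.11 and 3.87 ± 0.11. D. simulans larvae thus stayed under the filter of 1 FPKM for this gene. Cyp6w1, with 2.14 ± 0.31 and 2.51 ± 0.31, and Cyp4ae1, with 2.05 ± 0.12 and 1.40 ± 0.12, were also higher in adults of both species. On the larval side, Cyp312a1 (-3.36 ± 0.32 and -3.99 ± 0.32), Cyp310a1 (-2.57 ± 0.15 and -3.15 ± 0.15), Cyp4d1 (-2.90 ± 0.20 and -2.69 ± 0.20) and Cyp9c1 (-2.07 ± 0.14 and -1.93 ± 0.14) were lower in adults of both species. Cyp310a1 stayed under 1 FPKM in every D. simulans adult library. Of 29 P450 genes that passed in each stage of each species, 7 were higher in adults of both species, beside 36.9% of all such genes, and 6 lower, beside 18.5% (3 and 7, beside 27.7% and 26.9%, rescaled). Cyp12d1-d, Cyp28d1 and Cyp309a2 were lower in adults of D. simulans and higher in adults of D. sechellia, beside 3.85% of all such genes (Cyp28d1, Cyp309a2, Cyp6a18 and Cyp9h1, beside 3.64%, rescaled). Cyp28d1 moved by -2.21 ± 0.20 and 2.09 ± 0.20, and Cyp309a2 by -3.21 ± 0.21 and 1.58 ± 0.21. Cyp28c1, which did not pass in each stage of each species, was lower in adults of D. simulans (-0.32), a call lost on leaving out any of 10 libraries (-0.21 to -0.31).

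Whether the species difference depended on stage was tested as an interaction over the 48 parental libraries. Of 29 P450 genes that passed in all 4 combinations, the difference was larger in adults for 12 and smaller for 5, beside 31.5% and 20.9% of all such genes (10 and 5, beside 28.3% and 29.1%, rescaled). Over 44 genes that passed in any of them the counts were 22 and 8, beside 31% and 21.7% (19 and 8, beside 31.1% and 25.8%, rescaled). Among genes listed above 0 in some library of each group, Cyp6a18 had the largest interaction, 5.43 ± 0.35 (adjusted p = 1.45e-15), followed by Cyp309a2 at 4.79 ± 0.29, Cyp4ac1 at 4.57 ± 0.25, Cyp28d1 at 4.30 ± 0.28 and Cyp12d1-d at 3.19 ± 0.29. In the opposite direction stood Cyp4d8 at -2.72 ± 0.34 and Cyp4d20 at -2.09 ± 0.15. The adult and larval fits share no library, so their calls can be set side by side. Among those 29 genes, D. sechellia was higher in both stages for 14, beside 54.4% of all such genes, and lower in both for Cyp317a1, beside 2.48% (9 and 3, beside 19.6% and 20.6%, rescaled). It was higher in adults and lower in larvae for Cyp309a2, Cyp4ac1 and Cyp6a18, beside 3.21% (these and Cyp28d1, beside 4.25%, rescaled). The reverse held for Cyp4d8 at both scales, beside 0.924% (6.16% rescaled).

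**Figure D3:**
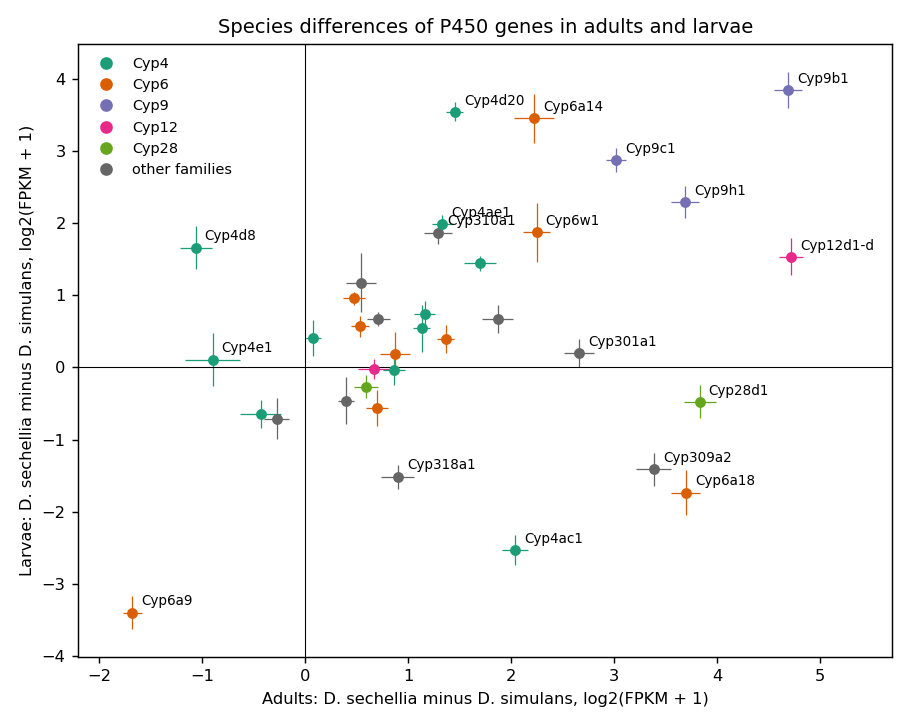
Species difference, D. sechellia minus D. simulans in log2(FPKM + 1), of 36 P450 genes in adults (x axis) and larvae (y axis); bars are standard errors and colours are families, and genes listed at 0 in all libraries of a group are left out. The Cyp9 genes lie far into the upper right, Cyp6a18, Cyp309a2 and Cyp4ac1 in the lower right, and Cyp6a9 in the lower left.

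In hybrids the alleles of both species are read in the same animals, and they were compared within each library. Allele columns were scaled to a total of 1000000 each, because D. simulans allele columns summed to 122009 to 192420 FPKM in adults and 216070 to 322606 in larvae, and D. sechellia ones to 766311 to 1034077 and 462871 to 788263. The sources used here do not say how reads were assigned to alleles. Of 36 P450 genes passing for each allele in adults, the D. sechellia allele was higher for 7 and lower for 11, beside 22.1% and 26.7% of all such genes (8 and 11, beside 20.2% and 29.3%, rescaled). In larvae it was higher for 7 and lower for 12 of 31, beside 13.1% and 35% (8 and 12, beside 18.4% and 30.1%, rescaled). Over genes passing for either allele, 11 were higher and 12 lower of 44 in adults, beside 21.3% and 28.2%, and 8 and 17 of 41 in larvae, beside 12.6% and 37.8% (12 and 12, beside 20% and 30.6%, and 9 and 16, beside 17.4% and 34%, rescaled). With the replicate number as a block, the adult counts were 7 and 5, and called genes over the whole table went from 3056 to 1630. All 3 Cyp9 genes were higher from the D. sechellia allele in both stages and at both scales, while Cyp4 had 0 higher and 5 lower of 11 genes passing for each allele in adults (1 and 5 rescaled) and 3 and 3 of 10 in larvae.

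Scaled levels of Cyp9b1 in adults were 3.4 to 10.6, median 4.87, from the D. simulans allele and 32.5 to 147, median 74.6, from the D. sechellia allele, a difference of 3.47 ± 0.20. In larvae they were 0 to 11.2, median 3.48, and 64.3 to 236, median 80, a difference of 4.77 ± 0.37. The alleles did not overlap in either stage. Cyp9c1 gave 2.03 ± 0.17 and 2.50 ± 0.16, again without overlap, and Cyp9h1 1.40 ± 0.36 and 1.22 ± 0.39, with overlap. The larval call of Cyp9h1 was lost without hybrid SS replicate 3 (1.05, adjusted p = 0.0522). Cyp6a14 was higher from the D. sechellia allele by 2.34 ± 0.34 in adults and 5.38 ± 0.51 in larvae, where the D. simulans allele was listed at 0 in 8 of 12 libraries.

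Several genes favoured the D. simulans allele in scaled columns. Cyp6a9 gave 28.7 to 117 scaled FPKM from the D. simulans allele in adults and 0 to 10.3 from the other, which was listed at 0 in 8 of 12 adult libraries and in all 12 larval ones. Its adult difference was -4.88 ± 0.48. In larvae, Cyp309a2 had 193 to 461, median 399, against 0 to 12.9, median 2.79 (-6.28 ± 0.23), Cyp4d1 had 229 to 927 against 0 to 17.1 (-7.60 ± 0.38), and Cyp4ac1 had 44 to 107 against 0 to 14.6 (-5.18 ± 0.22). None of these alleles overlapped. The same genes were less skewed in adults, at -0.99 ± 0.23 for Cyp309a2 and -2.10 ± 0.51 for Cyp4d1, and Cyp4ac1 did not pass there (0.24 ± 0.11). Cyp6a2 gave -1.85 ± 0.45 in adults and -2.43 ± 0.45 in larvae. These 3 adult directions depended on the scale: with allele columns as deposited the values were 1.33 for Cyp309a2, 0.19 for Cyp4d1 and 0.51 for Cyp6a2. Stage turned the direction for Cyp12d1-d, at 2.54 ± 0.30 in adults and -3.04 ± 0.24 in larvae, and for Cyp6a18, at 1.88 ± 0.20 and -4.08 ± 0.45. Cyp12d1-d levels were 5.79 to 62.4 from the D. simulans allele and 64.2 to 131 from the D. sechellia allele in adults, and 116 to 1145 and 13.3 to 109 in larvae, without overlap in either stage.

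The parental differences come from other libraries, and the calls can be set side by side for genes that passed on each side of both comparisons. In adults 33 P450 genes did. Of the 27 higher in D. sechellia, 7 were also higher from its allele and 5 lower, or 25.9% and 18.5%, beside 25.1% and 24.5% of all genes higher in D. sechellia (7 and 2 of 18, or 38.9% and 11.1%, beside 30.8% and 23%, rescaled). The 4 genes lower in D. sechellia, Cyp317a1, Cyp4d8, Cyp4e1 and Cyp6a9, were lower from its allele, beside 60.4% of all genes lower in D. sechellia (7 of 9, beside 37.4%, rescaled), although with allele columns as deposited Cyp4e1 turned to 1.27. In larvae, 5 of the 15 genes higher in D. sechellia were higher from its allele and 2 lower, or 33.3% and 13.3%, beside 18.6% and 29.8% (5 and 1 of 10, beside 34.7% and 22.6%, rescaled). The 5 lower ones, Cyp309a2, Cyp317a1, Cyp4ac1, Cyp4d1 and Cyp6a18, were lower from its allele, beside 68.3% (8 of 10, beside 42.8%, rescaled). Cyp318a1 and Cyp6a9 were called lower in D. sechellia larvae, but they entered that test only through D. simulans. Their D. sechellia allele was listed at 0 in all 12 larval hybrid libraries, which may be a failed estimate. They are not among the genes compared here. Cyp6a14, Cyp9b1, Cyp9c1 and Cyp9h1 were higher both in D. sechellia and from its allele in both stages. The share of all genes with the same calls was not counted, so whether these genes exceed it is not known. The D. simulans allele of Cyp6a14 was listed at 0 in most larval hybrid libraries. As given above, the larval allelic call of Cyp9h1 was lost on leaving out a single library.

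The parental and the allelic difference were also compared directly, in a fit of all scaled columns of a stage. Of 33 P450 genes that passed on all sides in adults, the parental difference was higher than the allelic for 10 and lower for 6, beside 18.7% and 40.6% of all such genes (17 and 1, beside 31.6% and 21%, rescaled). In larvae 6 of 30 were higher and 8 lower, beside 18.1% and 25.5% (9 and 4, beside 25.9% and 14.9%, rescaled). Cyp309a2 led in adults, where scaled parental medians of 7.77 in D. simulans and 43.8 in D. sechellia met allele medians of 41.7 and 21.9, so that the parental difference exceeded the allelic by 3.15 ± 0.33. Cyp28d1 followed at 2.89 ± 0.21, with parental medians of 6.8 and 53.4 and allele medians of 45.4 and 37.5. For both genes the D. simulans allele was higher in hybrids than the D. simulans parents in every library. In larvae the widest gaps were those of Cyp4d1 (5.53 ± 0.50), Cyp309a2 (3.47 ± 0.38) and Cyp12d1-d (3.22 ± 0.48) on the higher side and of Cyp6a14 (-2.94 ± 0.67), Cyp4ad1 (-2.15 ± 0.60) and Cyp9b1 (-2.12 ± 0.50) on the lower side. For Cyp9b1 and Cyp9c1 in adults the comparison did not pass, at 0.20 ± 0.26 and -0.06 ± 0.21, although rescaled Cyp9b1 gave 0.81 and passed.

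**Figure D4:**
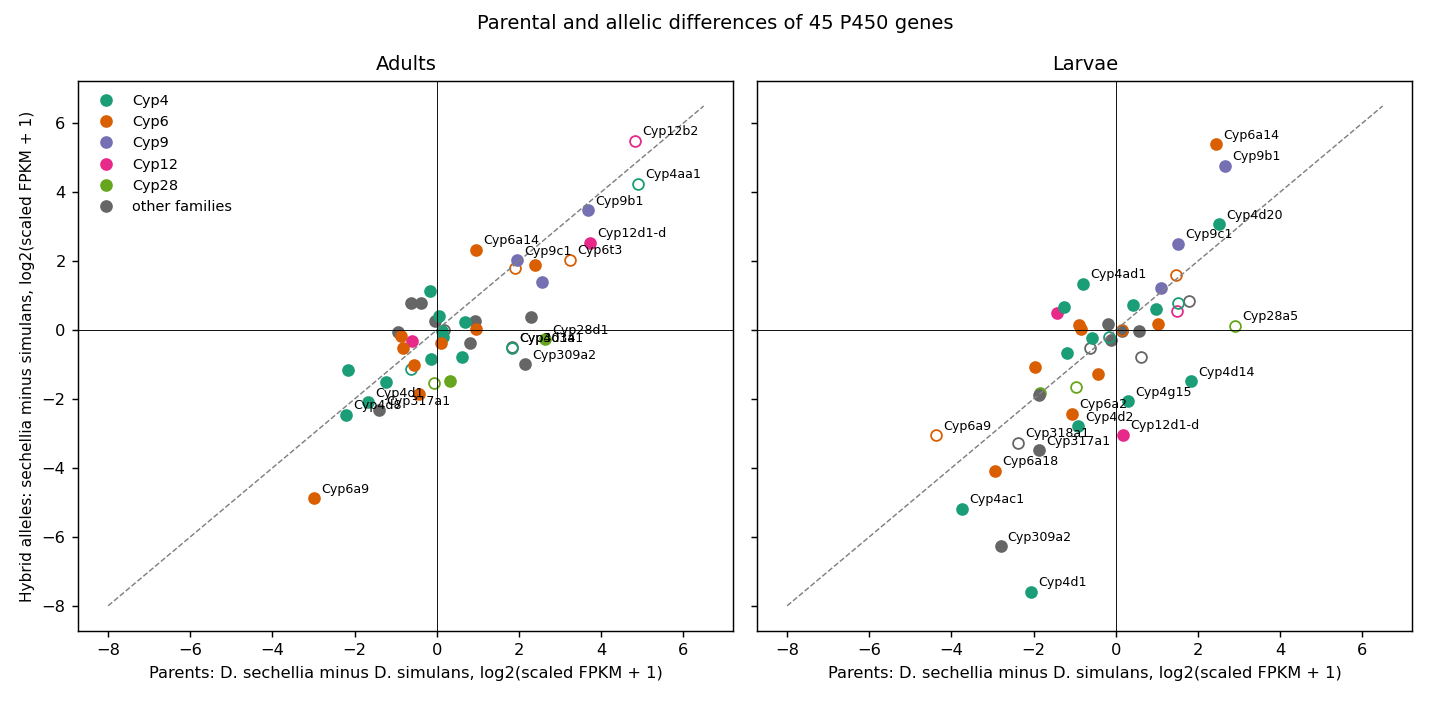
Parental difference (x axis) against allelic difference in hybrids (y axis), both D. sechellia minus D. simulans in log2(scaled FPKM + 1), for P450 genes in adults (left) and larvae (right); colours are families, open circles are genes listed at 0 in all libraries on one side, and the dashed line marks equal differences. In larvae Cyp4d1, Cyp309a2 and Cyp12d1-d lie far under the line and Cyp6a14 and Cyp9b1 over it.

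Hybrid expression, the sum of both allele columns, was compared with each parent in turn, and these comparisons share the hybrid libraries. A gene entered with at least 1 FPKM in at least 3 of 36 libraries of any genotype, so some entered only through the group where they were high. In adult D. simulans, 7 P450 genes were listed at 0 in 10 or more libraries and could hardly come out lower in hybrids. The shares of all genes carry the same filter, and counts over genes passing in each genotype were not made. Against D. simulans, 31 of 43 P450 genes were higher in adult hybrids and 4 lower, beside 59.1% and 16.9% of all genes (20 and 13, beside 32.7% and 39.6%, rescaled). Against D. sechellia, 15 were higher and 13 lower, beside 39.6% and 35.1% (5 and 20, beside 30.1% and 44.7%, rescaled). Larval hybrids had 16 higher and 4 lower of 43 against D. simulans, beside 35.2% and 30.2%, and 15 and 14 against D. sechellia, beside 19.4% and 44.3% (15 and 6, beside 29.4% and 40.8%, and 17 and 11, beside 26.8% and 39.4%, rescaled).

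Individual genes were higher or lower in hybrids than in both parents as listed, some of them with overlapping libraries. Hybrid values sum 2 allele columns and for a single gene may not share the parental scale, which was not tested. Cyp1, set aside above, was far lower in hybrids than in either parent, with medians given at the end. Library rank correlations within a genotype and stage had medians of 0.86 to 0.906 in adult hybrids and 0.944 to 0.985 in adult parents. In larvae they were 0.797 to 0.868 and 0.837 to 0.966. Adult hybrids had 57.6 to 255 FPKM of Cyp4e1, median 94.2, above every parental adult library, and differed from D. simulans by 3.09 ± 0.25 and from D. sechellia by 3.99 ± 0.25. Cyp4ac1 reached 121 to 262 FPKM, median 192, with differences of 3.43 ± 0.13 and 1.39 ± 0.13, Cyp311a1 47 to 137, median 80, with 1.91 ± 0.12 and 1.52 ± 0.12, and Cyp9c1 39.6 to 87.5, median 56, with 4.46 ± 0.13 and 1.45 ± 0.13. These 3 genes also exceeded every parental adult library. Cyp28a5 went the other way, at 0.851 to 11 FPKM, median 4.05, which was -1.26 ± 0.24 and -2.88 ± 0.24 from the parents. Its hybrid libraries overlapped those of D. simulans. In larvae, Cyp310a1 reached 30.2 to 238 FPKM, median 68.2 (3.46 ± 0.25 and 1.59 ± 0.25), and Cyp309a2 49.9 to 146, median 108 (0.93 ± 0.25 and 2.34 ± 0.25). The larval hybrids overlapped the higher parent for both genes. Cyp12d1-d had 35.8 to 388 FPKM, median 147, which was 3.27 ± 0.33 and 1.74 ± 0.33 above the parents, and Cyp312a1 27.5 to 315, median 137, which was 2.40 ± 0.40 and 1.22 ± 0.40 above. Libraries of larval hybrids overlapped those of D. sechellia for Cyp12d1-d and those of both parents for Cyp312a1. The calls named here held after rescaling, with the same sign. Markers of other tissues differed as well. Fat body markers summed to 4608 to 14438 FPKM in larval hybrids, against 17182 to 27804 in D. simulans and 8908 to 22674 in D. sechellia larvae, and to 217 to 557 in adult hybrids. Midgut markers summed to 4192 to 7004 FPKM in adult hybrids and 384 to 10511 in larval ones, and egg and ovary markers had adult medians of 29860 FPKM in hybrids, 10756 in D. simulans and 22284 in D. sechellia. Their part in the hybrid differences was not tested.

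The last question was whether octanoic acid, eaten by the animals or by the previous generation, changed P450 expression. No P450 gene passed in any of 22 comparisons of medium, with 33 to 43 members tested in each, by limma within a genotype and stage or for the difference between the species. Calls over all genes were 0% in 10 of these comparisons. In the others they were 0.0161% for the history term in adult D. sechellia, 0.0153% for each term in larval D. simulans, 0.0145% for the previous medium in larval D. sechellia, 0.0445% for either medium and 0.0296% for the history term in larval hybrids, and 0.0159% to 0.0318% in adults and 0.0143% in larvae for the difference between the species. The history term asks whether the effect of the current medium depended on the previous one. For the current medium, unadjusted p fell under 0.05 for 3 of 33 P450 genes in adult D. simulans, 2 of 43 in adult D. sechellia, 4 of 40 in adult hybrids, 2 of 35 in larval D. simulans, 0 of 39 in larval D. sechellia and 0 of 40 in larval hybrids. Over all genes, the matching counts were 116 of 5545, 57 of 6220, 660 of 5915, 140 of 6525, 109 of 6879 and 298 of 6749. With all libraries of the stage in 1 fit, 4 of 43 P450 genes passed for the current medium in adult hybrids and 1 for the previous one, beside 6.73% and 1.7% of all genes. The genes of smallest p in adult D. simulans were Cyp6w1 (0.43 ± 0.14), Cyp6a18 (0.55 ± 0.19) and Cyp6a9 (0.18 ± 0.06), each with an adjusted p of 1.00. In adult D. sechellia they were Cyp6a9 (-0.51 ± 0.19), Cyp310a1 (-0.65 ± 0.27) and Cyp6a22 (0.24 ± 0.15), and in adult hybrids Cyp6a22 (-0.63 ± 0.22), Cyp4d20 (0.66 ± 0.25) and Cyp4d2 (-1.08 ± 0.43). Cyp6w1 in adult D. simulans read 9.02, 7.02 and 5.28 FPKM in SS, 6.78, 9.98 and 8.35 in SO, 6.7, 5.8 and 5.61 in OS, and 8.11, 9.21 and 13.1 in OO, so that the media overlapped.

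The 95% intervals give the precision for a single gene. They were not adjusted for the number of genes tested, so effects larger than the half-width could still go uncalled. The medians below hold for the current and the previous medium, and single genes reached 1.97 in adult hybrids. For the history term the median half-widths ran from 0.51 to 2.09. The median half-width of the 95% interval over P450 genes was 0.25 on the log2 scale in adult D. simulans, 0.44 in adult D. sechellia, 0.88 in adult hybrids, 0.58 in larval D. simulans, 0.65 in larval D. sechellia and 1.04 in larval hybrids. The Cyp9 genes, the clearest by species, can serve as an example. In adult D. sechellia, Cyp9b1 read 43.7, 62.7 and 63 FPKM in SS, 48.7, 88.3 and 63.1 in SO, 74.5, 37.8 and 70.4 in OS, and 46.5, 52.6 and 62.6 in OO, with each history overlapping the others.

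For the previous medium, small p-values were frequent in D. simulans larvae. There, 17 of 35 P450 genes had an unadjusted p under 0.05, beside 1727 of 6525 genes, and none passed after adjustment, with Cyp4e1 (1.29 ± 0.35, adjusted p = 0.118), Cyp309a2 (-0.53 ± 0.16) and Cyp4ac1 (0.84 ± 0.26) of smallest p. Cyp4e1 read 19.2, 31.4 and 9.83 FPKM in SS, 6.44, 19.3 and 5.39 in SO, 39.9, 25.1 and 19.1 in OS, and 39.4, 31.2 and 51.3 in OO. Each of the 12 libraries was also left out in turn, and 0 to 15 members passed. The most, 15 beside 16.5% of all genes, passed without OO replicate 2, which is named for that count. It is not the library that stood apart, OO replicate 1, and its median rank correlation was 0.893. Of the 15, 11 were higher and 4 lower after octanoic acid in the previous generation, among them Cyp312a1 (-2.56) and Cyp12d1-d (-1.70). Without the same library, 4 passed for the difference between the species in this effect, beside 7.75%. With all libraries that difference had an unadjusted p under 0.05 for 6 of 42 P450 genes, beside 1511 of 7006 genes. The history term in D. sechellia larvae had one for 8 of 39, beside 428 of 6879, with a median of -0.80 over the members. Its smallest adjusted p was 0.718, and the genes of smallest p were Cyp305a1 (-0.91 ± 0.38), Cyp4c3 (-1.39 ± 0.59) and Cyp6g2 (-0.87 ± 0.37). Midgut markers varied alongside in D. simulans larvae. In replicates 1 to 3 they summed to 8590, 1859 and 4394 FPKM in SS and 4717, 1541 and 1604 in SO. The sums were 11512.5, 2109 and 6660 in OS, and 15811, 1700 and 9513 in OO. Within replicates 1 and 3, both OS and OO lay above SS and SO, whereas the 4 libraries of replicate 2 ran from 1541 to 2109. The part of the midgut markers in the counts was not tested. In adult hybrids, Cyp4e1 read 95.1, 93.4 and 82.6 FPKM in SS, 88.2, 57.6 and 70.1 in SO, 61.8, 120 and 180 in OS, and 218, 228 and 255 in OO. All 3 OO libraries lay above the other 9, and the effect of the previous medium, 0.99 ± 0.24, had an unadjusted p of 0.0012 and an adjusted p of 0.998.

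**Figure D5:**
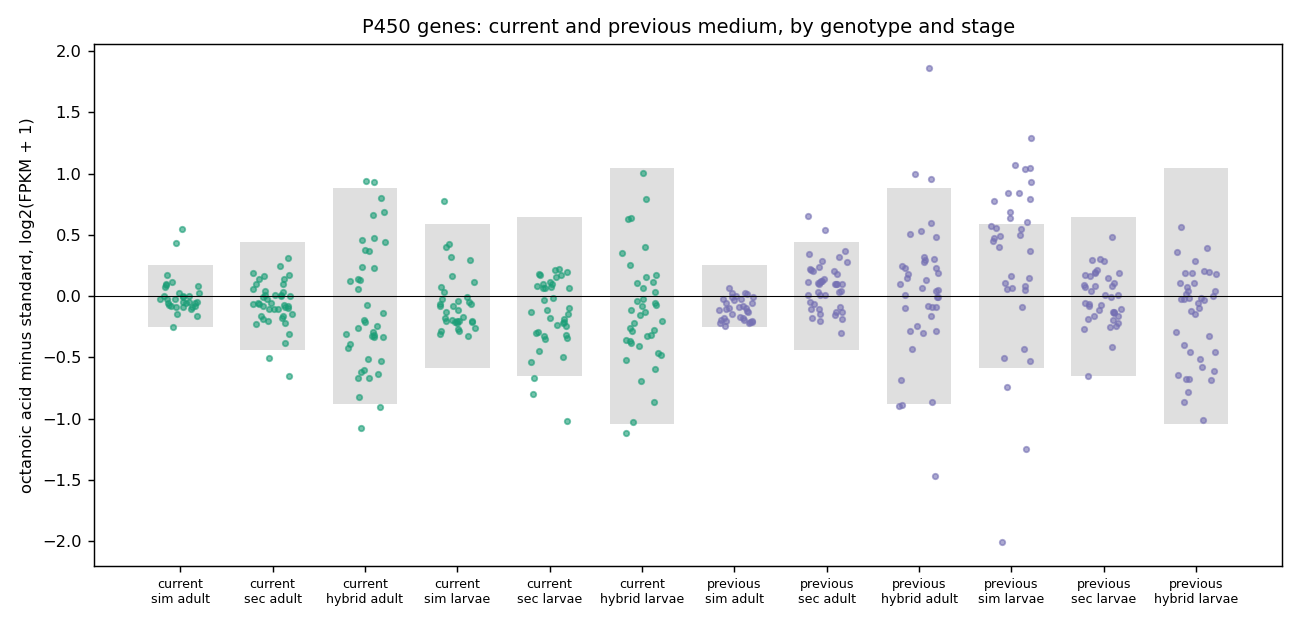
Effect of octanoic acid against standard medium on each tested P450 gene (y axis, log2(FPKM + 1)), for the current medium (green) and that of the previous generation (purple), by genotype and stage (x axis); grey bands give the median half-width of the 95% intervals around 0. None of the points passed the test, and bands are narrowest in adult D. simulans (0.25) and widest in larval hybrids (1.04).

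The electron donors and the enzymes that act with P450s were followed as lists. For the species the shares of all genes were, as above, 77% higher and 5.96% lower in adults (38.3% and 35% rescaled) and 59.2% and 8.74% in larvae (34.3% and 32.3% rescaled). All 5 redox partners in the table were higher in D. sechellia in adults and in larvae as deposited, and 3 were higher with 1 lower in adults and 3 higher in larvae after rescaling. Cpr, the reductase of the microsomal P450s, was 0.56 ± 0.08 and 0.57 ± 0.13 as deposited and -0.27 and -0.08 rescaled. Cytochrome b5 (Cyt-b5) was 2.32 ± 0.07 and 1.56 ± 0.10 and stayed higher after rescaling (1.49 and 0.90). The ferredoxin Fdx2 was 1.67 ± 0.06 and 1.27 ± 0.09, and its reductase dare 1.08 ± 0.09 and 0.89 ± 0.09. All 5 were higher in adults than in larvae in both species and at both scales, beside 38.5% and 44.2% of all genes as deposited, Cpr by 2.56 ± 0.11 and 2.55 ± 0.11. Glutathione transferases, which conjugate oxidised toxins, had 12 higher and 2 lower of 14 in adult D. sechellia (8 and 2 rescaled) and 8 and 2 of 13 in larvae (5 and 3 rescaled). UDP-glucosyltransferases had 4 higher of 4 in adults (2 and 2 rescaled) and 1 higher and 1 lower of 4 in larvae (1 and 2 rescaled). A list of 8 regulatory genes, Hr96, Keap1, maf-S, ss, EcR, usp, Met and gce, had 7 higher of 7 tested in adults (5 and 2 rescaled). In larvae 4 of 8 were higher (2 and 3 rescaled). The list is not limited to genes that act in detoxification alone.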

How the data were processed

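The authors deposited a single table of FPKM values for 7836 genes in 96 columns, 48 of parental libraries and 48 of alleles, a pair for each of 24 hybrid libraries. FastQC, Bowtie2 and Cufflinks are named in the submitters' processing notes. The sources used here give no genome builds or tool versions, and do not say how reads shared between close copies or alleles were assigned. FPKM keep no read depth, so no counting intervals could be given, and the number of libraries limits the precision.

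Tests used limma 3.58.1 in R 4.3.3 with a mean-variance trend, on log2(FPKM + 1), which understates the change of genes with low values. Genes needed at least 1 FPKM in at least 3 columns of a fit, and Benjamini-Hochberg adjustment ran over all genes of a fit, with a threshold of 0.05. The species were compared over the 24 parental libraries of a stage, stages over the 48 parental libraries, media within the 12 libraries of a genotype and stage, and hybrids, as the sum of their allele columns, over 36 libraries. Allelic differences were within-library log2 ratios of columns scaled to 1000000, and parental and allelic differences were compared in a fit with the library as a block (estimated correlation 0.0927 in adults and 0.174 in larvae). Rescaling divided each column by the median of its ratios to the geometric mean column. The fits were tested on simulated data. Tables were made in Python 3.11.15 with numpy 2.4.6 and pandas 2.3.3, and figures with matplotlib 3.10.9.

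All matching genes were counted. Values were named for the 3 P450 genes of highest mean per stage, for up to 6 called genes per comparison and direction with the largest difference and a mean of at least 2 FPKM in a group, for the 3 genes of smallest p where a medium gave no call, for genes of known role, and for genes listed at 0 in at least 10 of 12 libraries of a species. Genes beyond that rule, such as Cyp12c1 and Cyp9b1 by history, were named after their values were seen. The genes and lists were chosen with earlier results of these data known. Other pseudocounts, filters, scalings, blocks and sets of libraries were tried. No symbol matched the gene table at hand, so no position or sequence is given.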

Additional observations from a re-analysis of the deposited data

Results flagged for a closer look

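The species difference in log2(FPKM + 1), D. sechellia minus D. simulans, was itself different between adults and larvae by limma's interaction test for 23 P450 genes that had a mean of at least 2 FPKM in some group and were listed above 0 in some library of each group. Genes listed at 0 in all libraries of a group are not among these 23. Over all 44 P450 genes tested, the adult difference was larger for 22 and smaller for 8, beside 31% and 21.7% of all genes. The share of all genes under the further conditions was not counted. Some of the 23 were still near the floor in a group. Cyp301a1 was listed at 0 in 11 of 12 adult D. simulans libraries, and Cyp316a1 in 9 of 12 adult and 8 of 12 larval ones. Cyp6a9 and Cyp318a1 stayed under 1 FPKM in D. sechellia larvae, and Cyp310a1 in D. simulans adults. A positive value means that the adult difference exceeded the larval one.

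Interactions above 3 were those of Cyp6a18 (5.43), Cyp309a2 (4.79), Cyp4ac1 (4.57), Cyp28d1 (4.30) and Cyp12d1-d (3.19). The next were Cyp301a1 (2.46), Cyp318a1 (2.41), Cyp6a9 (1.72), Cyp9h1 (1.40), Cyp6a13 (1.26) and Cyp49a1 (1.20). Values under 1 were those of Cyp6a17 (0.97), Cyp4c3 (0.90), Cyp311a1 (0.86), Cyp9b1 (0.84) and Cyp12c1 (0.69), and those of Cyp311a1 and Cyp9b1 did not pass after rescaling.

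In the opposite direction stood Cyp4d8 (-2.72), Cyp4d20 (-2.09), Cyp316a1 (-1.86), Cyp6a14 (-1.23), Cyp4ae1 (-0.65), Cyp310a1 (-0.58) and Cyp6u1 (-0.48). The Cyp310a1 value did not pass after rescaling (-0.30). What moved with these values is given beside the species and stage comparisons, and its part in them was not tested.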

How the results depend on the processing

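Read depth is unknown, and column totals differ between the species by more than many of the differences reported, so small differences depend on the scale. Leaving out each library in turn gave 40 to 42 called P450 genes for the species in adults and 29 to 33 in larvae, 26 to 29 and 36 to 37 for the stages in D. simulans and D. sechellia, and 29 to 33 for species by stage. It gave 33 to 35 and 24 to 29 for adult hybrids against D. simulans and D. sechellia, 19 to 22 and 28 to 31 for larval hybrids, 22 to 25 and 23 to 26 for alleles in adults and larvae, and 17 to 22 and 19 to 23 for the parental against the allelic difference. For the previous medium the counts were 0 to 15 in larval D. simulans and 0 to 4 for its difference between the species, the highest without OO replicate 2 and beside 1070 of 6500 and 543 of 7003 genes, and for all other media comparisons 0 to 0. With all libraries of the stage in the fit, 4 genes passed for the current medium in adult hybrids, Cyp6a17 (0.68), Cyp4d20 (0.66), Cyp6a22 (-0.63) and Cyp4d2 (-1.08), and 1 for the previous medium, Cyp303a1 (1.86), of 43 tested and beside 432 and 109 of 6420 genes. Limiting species by stage to genes passing in all 4 groups, chosen after seeing the data, cut tested P450 genes from 44 to 29. Their calls went from 30 to 17, and those over all genes from 3881 to 2667.

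The replicate block lowered the allelic calls in adults from 23 to 12, and those over all genes from 3056 to 1630. Same-numbered libraries correlated over 0.1 in 0 to 14 of 18 pairs by genotype and stage, not in all pairs of any. The numbers were not treated as pairing, a choice that these correlations do not settle. The 14 were those of larval D. simulans, with a median of 0.38 against -0.16 for libraries of different number.

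Rescaling turned the sign of the adult species difference for Cyp12c1 (-0.084), Cyp305a1 (-0.079), Cyp311a1 (-0.39), Cyp6a13 (-0.042), Cyp6a22 (-0.27) and Cyp6u1 (-0.33), and of the larval one for Cyp6a22 (-0.076). It also turned adult hybrids against D. simulans for Cyp305a1 (-0.54), Cyp4ad1 (-0.21), Cyp4d8 (-0.57), Cyp6a22 (-0.39) and Cyp6u1 (-0.63), against D. sechellia for Cyp4p3 (-0.023) and Cyp6a22 (-0.15), and the stage difference in D. sechellia for Cyp6u1 (-0.041). Allele columns as deposited turned the adult allelic difference for Cyp309a2 (1.33), Cyp4d1 (0.19), Cyp4d2 (0.71), Cyp4e1 (1.27), Cyp4p3 (1.49), Cyp6a13 (1.25), Cyp6a2 (0.51) and Cyp6a22 (1.85), the larval one for Cyp6a13 (0.075), and the adult parental against allelic difference for Cyp4ac1 (-0.63) and Cyp4p3 (-0.33). A pseudocount of 0.1 turned species by stage for Cyp310a1 (0.94). The cause was not tested.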

Other observations

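Summed P450 expression of larval hybrids differed between libraries of different replicate number, with 654 to 892 FPKM in the 4 libraries numbered 1, 1148 to 2186 in those numbered 2 and 1850 to 2116 in those numbered 3. Cyp4e1 varied most widely there, from 9.97 to 686 FPKM, with the highest value in SS replicate 2. Cyp1, the cyclophilin gene that shares the prefix, had medians of 1472 FPKM in adult D. simulans, 2361 in adult D. sechellia and 253 in adult hybrids, and of 992, 1753 and 53.8 in larvae.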
